A study of Mus musculus with 26 samples.

Results

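The 16 arrays taken at lactation day 9, of 26 arrays in all, were compared for how much expression differed among mice of 1 population, not for mean level. The 10 intercross arrays (Advanced Intercross Line, AIL) carried the sample codes AC (AC1 to AC5) and AQ (AQ1 to AQ5), which the labels do not explain. The 6 inbred arrays came from CBA/CaH (3) and QSi5 (3). For each probe set, the variance of the AIL log2 levels around the mean of their own code was divided by the variance of the inbred log2 levels around the mean of their own strain. The ratio was taken for the 24504 of 45037 probe sets whose mean log2 level over the 16 arrays was at least 5; they carried the symbols of 12989 genes. No array of this comparison came from a mouse with a transgene or a treatment named in the labels.

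The study measured RNA of the mammary gland on Affymetrix mouse arrays. Inbred CBA/CaH and QSi5 females were sampled at pregnancy day 12, with 5 arrays a strain. Both strains were sampled again at lactation day 9, together with AIL females bred from CBA/CaH and QSi5 and intercrossed to generation 14. Ages are not in the labels, and neither is whether an array held RNA of 1 mouse or of several, so p-values measure the spread between these arrays.

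Mice of an inbred strain share almost the whole of their genome, so differences among them come mainly from the environment, the sampling of the tissue and the measurement. An advanced intercross line starts from a pair of inbred strains and is bred on for generations while avoiding matings of close relatives, which leaves each animal with its own mosaic of segments from the founder strains. Genes that differ in expression between founders because of nearby sequence can then differ among the animals of the line. The lactating gland is dominated by secretory epithelium, with myoepithelial cells, fat, vessels, immune cells and an embedded lymph node around it.

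Secretory genes of the lactating gland were at high level on all 16 arrays. Wap, a whey protein gene, had a mean log2 level of 15.06 and a highest one of 15.13, and Csn2, which codes for beta-casein, between 14.76 and 14.87. Array AC1 stood apart in the summed level of 16 skeletal muscle markers, at 14.13 log2 units against 9.10 to 9.53 on the other 15 lactation arrays. Array QSi5 2 stood apart in B cell and plasma cell markers: the median level over the list was 2.64 log2 units above that of the middle QSi5 array. Their summed level, in which the brightest markers weigh most, was 11.62 there and lay between those of the other QSi5 arrays. Levels also separated the populations: all 10 AIL arrays lay above all 6 inbred arrays for 12.1% of tested probe sets and below them for 6.18%. The standard deviation over all probe sets of an array was 1.95 to 2.02 in AIL and 1.82 to 1.88 in the inbred lactation arrays. The labels name no batch, so any difference in handling and the population cannot be told apart.

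Expression was not more variable among AIL mice across the measured transcriptome. The median variance ratio of AIL over inbred was 0.803, or -0.32 on the log2 scale, where an F distribution with the same 8 and 4 degrees of freedom has its median at 1.09. The ratio was above 1 for 41.9% of probe sets, at least 4 for 8.08% and at most 0.25 for 13.0%. The median standard deviation of a probe set was 0.196 log2 units in AIL and 0.222 in the inbred mice.

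The deviation of an array was taken as the median, over the tested probe sets, of the absolute distance from its group mean, corrected for group size. It was 0.169, 0.162 and 0.168 log2 units on CBA/CaH arrays 1 to 3 and 0.140, 0.167 and 0.170 on QSi5 arrays 1 to 3. On AC1 to AC5 it was 0.135, 0.148, 0.154, 0.149 and 0.158, and AQ1 to AQ5 gave 0.121, 0.125, 0.140, 0.139 and 0.141. All 10 AIL arrays were below the second-lowest inbred array, and 4 of them were below the lowest, QSi5 1. The mean was 0.141 ± 0.0118 (SD, n = 10) in AIL and 0.163 ± 0.0114 (SD, n = 6) in the inbred arrays. The difference of -0.0216 had p = 0.00425 in a two-sided exact permutation test over 8008 splits, in which arrays of 1 group are tied through their common mean. The pregnancy arrays, at 0.201 ± 0.0387 (SD, n = 5) for CBA/CaH and 0.234 ± 0.103 (SD, n = 5) for QSi5, were more dispersed than either lactation population in these means.

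**Figure D1:**
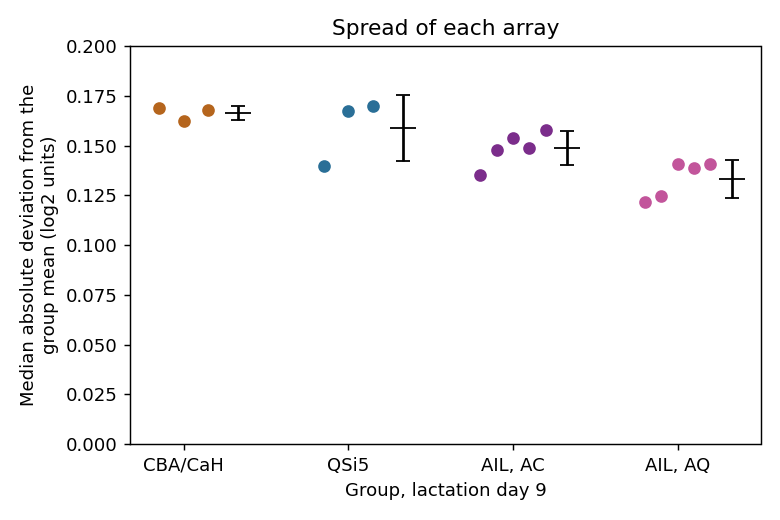
Deviation of each lactation array (points; y axis, median absolute distance from the group mean in log2 units) by group (x axis), with the mean and SD of each group beside it. AQ1 and AQ2, at 0.121 and 0.125, lie lowest, and 5 of the 6 inbred arrays lie between 0.162 and 0.170.

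Within AIL, the arrays numbered 1 to 3 and those numbered 4 and 5 differed in both codes. The first principal component of the AIL deviations held 29.9% of their variance and put AC4, AC5, AQ4 and AQ5 on one side and the other 6 arrays on the other. The difference between these number sets took a median of 30.9% of a probe set's AIL sum of squares. The degrees of freedom of that difference give 25% as a mean share, which is not the same kind of value as a median. Centring AIL within code and number set moved the median log2 ratio to -0.66. The labels do not say what the numbers stand for.

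Individual probe sets were tested with variances moderated by limma separately in each population, and their ratio was referred to the F distribution with Benjamini-Hochberg adjustment over the 24504 probe sets. At an adjusted p below 0.05, 25 probe sets (0.102%) were more variable in AIL and 30 (0.122%) were less variable. The 25 carried 13 gene symbols and the 30 carried 20; 10 and 6 of them had no single symbol. After quantile normalization the counts were 22 and 51, and relative to the median ratio of all probe sets they were 33 and 15. Without AC1 and QSi5 2, the arrays that stood apart, 5 and 1 remained; all of these were among the original calls.

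Probe sets that differed between the founder strains had larger variance ratios than the rest. The strain difference was taken from the 10 pregnancy arrays, which the spread ratio does not use; 200 probe sets (0.816%) of 141 genes passed limma's test at an adjusted p below 0.05. Their median log2 variance ratio was 1.05, against -0.32 for all tested probe sets, and 72.5% had a ratio above 1. Their median standard deviation was 0.361 log2 units in AIL and 0.264 in the inbred arrays. The inbred value was also above the 0.222 of all probe sets. Of the 25 probe sets called more variable, 8 were called for strain at pregnancy, each higher in QSi5, and none of the 30 called less variable was. The 8 were the unnamed 1425469_a_at, 1425470_at, 1425471_x_at and 1452565_x_at, H2-D1 (1425545_x_at and 1451683_x_at), Lin7c and Ctse. The unnamed probe sets shared a split of the AIL arrays and those of H2-D1 shared another, so the 8 are not separate events.

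The ratio was larger where the pregnancy difference was larger, as a description with no test. Its median log2 value was -0.35 over 22514 probe sets with a difference under 0.5 log2 units, and -0.12 over 1628 with 0.5 to 1. It was 0.55 over 302 with 1 to 2, and 2.26 over 60 with 2 or more, of which 86.7% had a ratio above 1 and 10 were called more variable. The last group had a median AIL range of 2.56 log2 units and a median inbred standard deviation of 0.341. Centring AIL within code and number set left its median at 1.79, that of all probe sets being -0.66. The 10 calls included the muscle genes Pvalb, Atp2a1 and Tnni2, with pregnancy differences of 2.17, 2.10 and 2.06 log2 units. They were not called for strain (limma, adjusted p = 0.791, 0.789 and 0.791), and their spread calls were lost without AC1. Ckm, Pygm and Actn3, called in the group with 1 to 2, were muscle genes of the same kind.

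**Figure D2:**
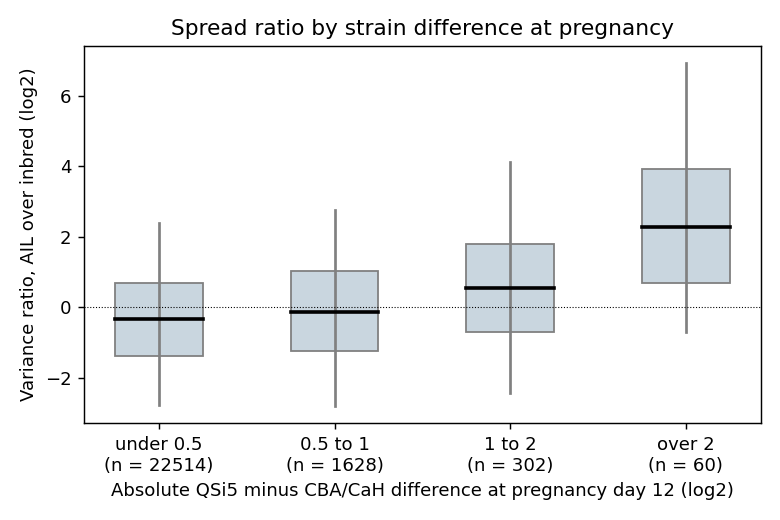
Log2 variance ratio of AIL over inbred (y axis) for probe sets binned by the absolute strain difference at pregnancy day 12 (x axis, log2 units). Boxes span the quartiles, black lines are medians, grey lines run from the 5th to the 95th percentile, and the median climbs from -0.35 to 2.26.

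Of these 60 probe sets, 25 also differed by at least 2 log2 units between the lactation means of the strains, in the same direction. Their AIL levels could be placed between the strain means. Of the AIL values, 53.6% were nearer QSi5 and 46.4% nearer CBA/CaH. On the log2 scale, 22.8% fell from 0.25 to 0.75 of the way between the strain means. A further 5.60% lay beyond a strain mean by more than 0.25 of the difference. On that scale, an RNA amount midway between widely separated strains lies near the higher strain mean. The low share in the middle therefore cannot tell founder levels from intermediate amounts. AIL arrays fell on both sides of the midpoint for 20 of the 25. No AIL array stood with 1 strain throughout: AC2 and AQ5 were nearer CBA/CaH for 15 of 25, and AC4 and AC5 nearer QSi5 for 17 of 25. The 25 carried only 11 gene symbols, and 5 of them, of H2-D1 and H2-K1, shared one split of the arrays, while 4 without a name shared another, so these shares weigh the same split several times.

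The plainest case was a probe set without a gene name in the annotation used here, 1425470_at, singled out after its values were seen. CBA/CaH arrays gave 3.60, 3.42 and 3.84 log2 units and QSi5 arrays 12.50, 12.37 and 12.46. Levels on AC1 to AC5 were 12.59, 12.48, 12.53, 12.37 and 12.64, and AQ1 to AQ5 gave 11.82, 3.55, 12.64, 12.51 and 11.61. AQ2 alone thus stood near CBA/CaH and the other 9 AIL arrays nearer QSi5, with none midway on the log2 scale. Of these 9, AQ1 and AQ5 lay below all QSi5 arrays and below the rest, which ranged from 12.37 to 12.64. The log2 variance ratio was 8.29 with an adjusted p of 0.000449 by the moderated limma test. The call rested on AQ2, which held 78.9% of the AIL squares, and was lost without it. Probe sets 1425469_a_at, 1425471_x_at and 1452565_x_at, also unnamed and also called, likewise had AQ2 as the only AIL array nearer CBA/CaH. On each of them AQ1 and AQ5 were again the lowest of the other 9 AIL arrays.

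Class I genes of the major histocompatibility complex also showed a division into levels near the founders on the log2 scale. H2-D1 codes for a classical class I molecule that presents peptides to T cells, and H2-K1 for another. The family is polymorphic and its members are alike in sequence, and probe sets whose identifiers end in x_at can match several of them, so a level may reflect the match of an allele to the probes as well as the amount of RNA. The share of each was not tested.

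For H2-D1 probe set 1451683_x_at, the CBA/CaH arrays gave 4.31, 4.19 and 4.47 log2 units and the QSi5 arrays 8.54, 8.88 and 8.92. The AC arrays read 4.54, 4.61, 4.66, 8.03 and 8.13, and AQ1 to AQ5 gave 8.53, 8.56, 8.51, 8.26 and 4.05. AC1, AC2, AC3 and AQ5 were thus near CBA/CaH and the other 6 near QSi5, with a gap of more than 3 log2 units between them. The standard deviation was 1.94 in AIL and 0.178 in the inbred arrays, a log2 ratio of 6.89 (adjusted p = 0.00201, moderated limma test). The call held without each of the 16 arrays in turn and with AIL centred within code and number set (adjusted p = 0.0456). No other named gene met both conditions. Among the AIL arrays numbered 1 to 3 alone the log2 ratio was -3.86, since the AC arrays then all stood near CBA/CaH and the AQ arrays near QSi5.

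The second called H2-D1 probe set, 1425545_x_at, gave 8.06, 7.86 and 7.82 in CBA/CaH and 11.39, 11.65 and 11.46 in QSi5. In array order AC1 to AC5 were at 7.57, 8.95, 7.98, 10.65 and 10.73, and AQ1 to AQ5 gave 10.94, 10.83, 11.14, 10.77 and 7.73. The same 4 arrays were low. Its log2 ratio was 6.91 with an adjusted p of 0.00698, but 0.106 with AIL centred within code and number set. For H2-K1 (1451931_x_at), 6.80, 7.39 and 7.11 in CBA/CaH stood against 11.38, 11.93 and 11.21 in QSi5, and AIL ranged from 7.48 to 8.26 on these 4 arrays and from 10.48 to 11.21 on the others. It missed the threshold with a log2 ratio of 4.18 and an adjusted p of 0.0586.

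Each of the 7 tested probe sets of H2-D1 and H2-K1 that differed by 2 or more log2 units at pregnancy, listed after their values were seen, separated AC1, AC2, AC3 and AQ5 from the other 6 AIL arrays without overlap. In 6 of them QSi5 was the higher strain and these 4 arrays were the lower ones. In H2-D1 probe set 1450170_x_at CBA/CaH was higher at pregnancy by 6.50 ± 0.297 log2 units (SE, n = 5 a strain). Its lactation levels were 9.94, 10.50 and 10 in CBA/CaH and 4.35, 3.83 and 4.96 in QSi5. AC1 to AC5 gave 11.04, 11.23, 11.33, 10.14 and 10.03, and AQ1 to AQ5 gave 10.18, 10.07, 10.19, 10.22 and 10.93. All 10 AIL arrays were near the CBA/CaH level, with the same 4 highest, and the log2 variance ratio was 0.27 (adjusted p = 0.949).

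**Figure D3:**
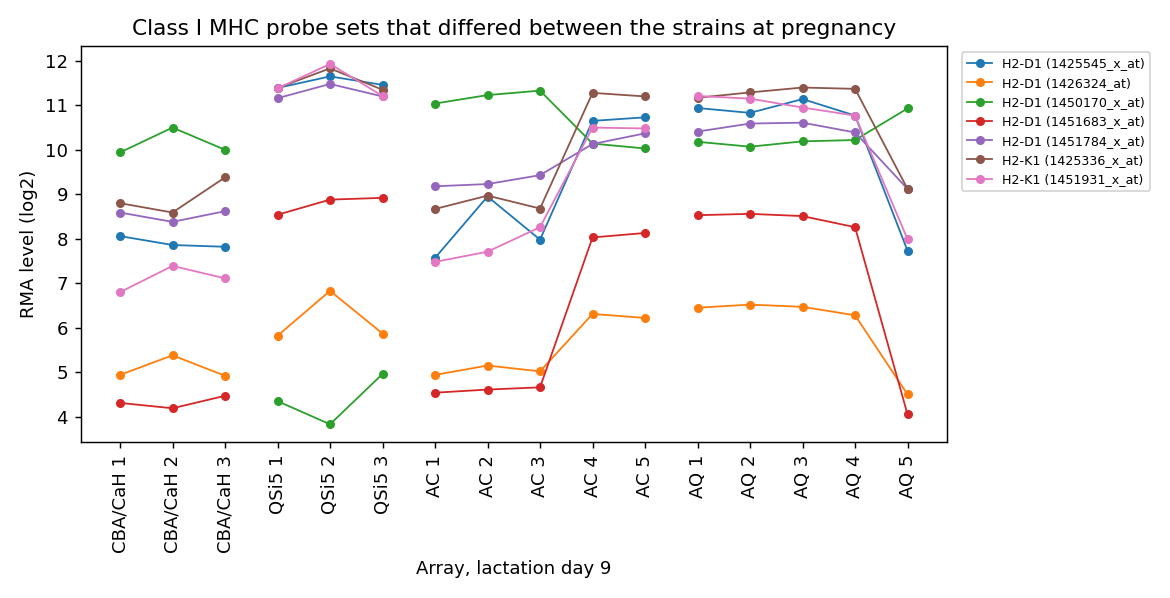
Log2 RMA level (y axis) of 7 H2-D1 and H2-K1 probe sets on each lactation array (x axis), with lines joining arrays of a group only to guide the eye. AC1, AC2, AC3 and AQ5 are low in 6 probe sets and high in 1450170_x_at, where all AIL arrays lie between 10.03 and 11.33.

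Other genes with a large strain difference at pregnancy were mixed. Phgdh, the first enzyme of serine synthesis, was read by 1454714_x_at at 10.77, 11.21 and 11.80 in CBA/CaH and at 7.31, 7.09 and 7.56 in QSi5. Of the AIL arrays, AC1 to AC5 gave 9.42, 6.77, 6.99, 6.77 and 6.66, and AQ1 to AQ5 gave 7.01, 6.97, 9.53, 9.78 and 6.94. AC1, AQ3 and AQ4 formed an upper level below that of CBA/CaH, and the other 7 arrays were below all QSi5 arrays (log2 ratio 3.44, adjusted p = 0.162). Other Phgdh probe sets had log2 ratios of -2.15 to 0.10. Their QSi5 minus CBA/CaH differences at pregnancy were -0.93 to -0.75 log2 units, against -6.06 for 1454714_x_at. None of the others was called for strain (limma, adjusted p = 0.176 to 0.282). For Pdxdc1 (1419327_at), AC4 was at 5.68, below the QSi5 range of 6.0 to 6.73, while the other 9 AIL arrays lay between 8.16 and 9.16. CBA/CaH arrays of Pdxdc1 gave 8.57 to 9.15; the log2 ratio was 3.06 and the adjusted p 0.332. A second Pdxdc1 probe set, 1452705_at, had the opposite strain difference at pregnancy (2.40 against -4.68 log2 units) and a log2 ratio of 3.49.

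D17H6S56E-5 (1417821_at) differed by -5.59 log2 units between QSi5 and CBA/CaH at pregnancy, yet all 10 AIL arrays were on the CBA/CaH side, at 9.28 to 12.71. AC1, AC2, AC3 and AQ5 were the highest, as in H2-D1 probe set 1450170_x_at. They read 10.43 to 12.71 against 9.28 to 10.39 on the other AIL arrays. The log2 variance ratio was 2.24 and did not pass the moderated limma test (adjusted p = 0.661). Tnfsf13os (1442123_at) ranged over 5.26 to 6.26 among CBA/CaH arrays, 8.54 to 8.73 among QSi5 and 5.52 to 8.62 among AIL, with AQ1 and AQ2 lowest (log2 ratio 2.36, adjusted p = 0.657). Lipa, a lysosomal lipase gene, had AIL levels of 5.94 to 7.03, which bridged QSi5 at 5.75 to 6.30 and CBA/CaH at 7.04 to 7.53. Its log2 ratio was 0.91 (adjusted p = 0.942). Coro2a (-1.66) and Kctd14 (0.47) had log2 ratios with adjusted p of 0.904 and 0.934.

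Lin7c, which codes for a scaffold protein of cell junctions, was higher in QSi5 at pregnancy by 4.04 log2 units on probe set 1423322_at alone. At lactation 1423322_at gave 4.19, 4.53 and 4.15 in CBA/CaH and 6.36, 6.04 and 6.45 in QSi5. For AC1 to AC5 the levels were 4.11, 4.03, 4.68, 4.09 and 4.56, all near CBA/CaH. AQ1 to AQ5 gave 8.28, 7.72, 7.19, 3.89 and 7.65, so that 4 AQ arrays exceeded both strains and AQ4 did not. The log2 ratio was 5.15 (adjusted p = 0.0333, limma). The call held without 9 of the 16 arrays in turn and was lost without CBA/CaH 2 or 3, any QSi5 array, AQ1 or AQ4. Other Lin7c probe sets were not called, with log2 ratios of -2.15 to 2.32. Their strain differences at pregnancy were -0.15 to 0.82 log2 units and were not called either (limma, adjusted p = 0.622 to 0.926).

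Ctse codes for cathepsin E, an intracellular protease. On 1418989_at CBA/CaH gave 6.88, 7.49 and 7.34 and QSi5 gave 10.37, 9.60 and 9.85. AC1 to AC5 stood at 9.62, 6.22, 10.32, 10.05 and 10.20, and AQ1 to AQ5 gave 6.32, 8.86, 9.34, 6.22 and 9.73. AC2, AQ1 and AQ4 were below all CBA/CaH arrays and the other 7 between 8.86 and 10.32. The log2 ratio was 4.54 (adjusted p = 0.0262), and the call was lost without CBA/CaH 2, CBA/CaH 3, QSi5 3 or AC2. A second Ctse probe set, 1427797_s_at, was at 4.44 to 5.16 in both strains and at 5.95 to 11.11 in AIL, and was called too (log2 ratio 4.35, adjusted p = 0.0440), although the call held without only 5 of the 16 arrays in turn. Its AIL arrays were ordered differently from those of 1418989_at. AQ1 and AQ4, low on 1418989_at, gave 11.01 and 9.14, while AC2, low on both, gave 5.95.

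Several called genes were not called for strain at pregnancy. Slco2b1 codes for an organic anion transporter. Its probe set 1433933_s_at gave 8.85, 8.47 and 8.83 in CBA/CaH and 5.63, 5.79 and 5.65 in QSi5. Arrays AC1 to AC5 read 7.0, 8.60, 6.65, 9.76 and 8.50, and AQ1 to AQ5 gave 9.56, 8.24, 6.31, 6.29 and 6.43. AIL levels spanned the interval between the strains and went above it on 2 arrays. The log2 ratio was 6.13 (adjusted p = 0.0124), lost without QSi5 3 alone among single arrays, and 0.0471 was the adjusted p with AIL centred within code and number set. Other Slco2b1 probe sets were not called (log2 ratios 2.82 and -0.56).

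Fhad1 and a further unnamed probe set were singled out after their values were seen. Fhad1 (1439190_at) gave 9.50, 10.13 and 10.95 in CBA/CaH and 5.07, 4.05 and 4.77 in QSi5. AC1 to AC5 had 10.59, 9.27, 10.53, 5.09 and 5.34, and AQ1 to AQ5 gave 5.19, 8.76, 5.28, 8.97 and 9.87. On the log2 scale, levels again fell near a founder, with none between 5.34 and 8.76 (log2 ratio 3.94, adjusted p = 0.0358, moderated limma test). That call held without 6 of the 16 arrays in turn and had an adjusted p of 0.564 with AIL centred within code and number set. The unnamed probe set 1452418_at lay at 7.01 to 7.61 on the CBA/CaH arrays and 8.89 to 9.22 on the QSi5 arrays, while AIL ran from 7.11 to 11.98, with 8 of 10 arrays above both strains. Its log2 ratio of 5.72 (adjusted p = 0.00698) was kept without each array in turn and within code and number set.

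Acaca codes for acetyl-CoA carboxylase, which makes the building block of fatty acid synthesis. Its called probe set 1427595_at gave 5.20, 5.45 and 5.87 in CBA/CaH and 6.59, 6.71 and 6.60 in QSi5. The 5 AC arrays gave 8.28, 9.83, 9.88, 6.48 and 6.76, and AQ1 to AQ5 gave 9.05, 8.08, 8.67, 6.97 and 7.26. In both codes arrays 1 to 3 were higher than 4 and 5, and the number sets took 83.8% of the AIL squares. The log2 ratio of 4.83 (adjusted p = 0.0358) had an adjusted p of 0.606 once AIL was centred within code and number set, and held without 8 of the 16 arrays in turn. A brighter Acaca probe set, 1434185_at, had a log2 ratio of -0.44.

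**Figure D4:**
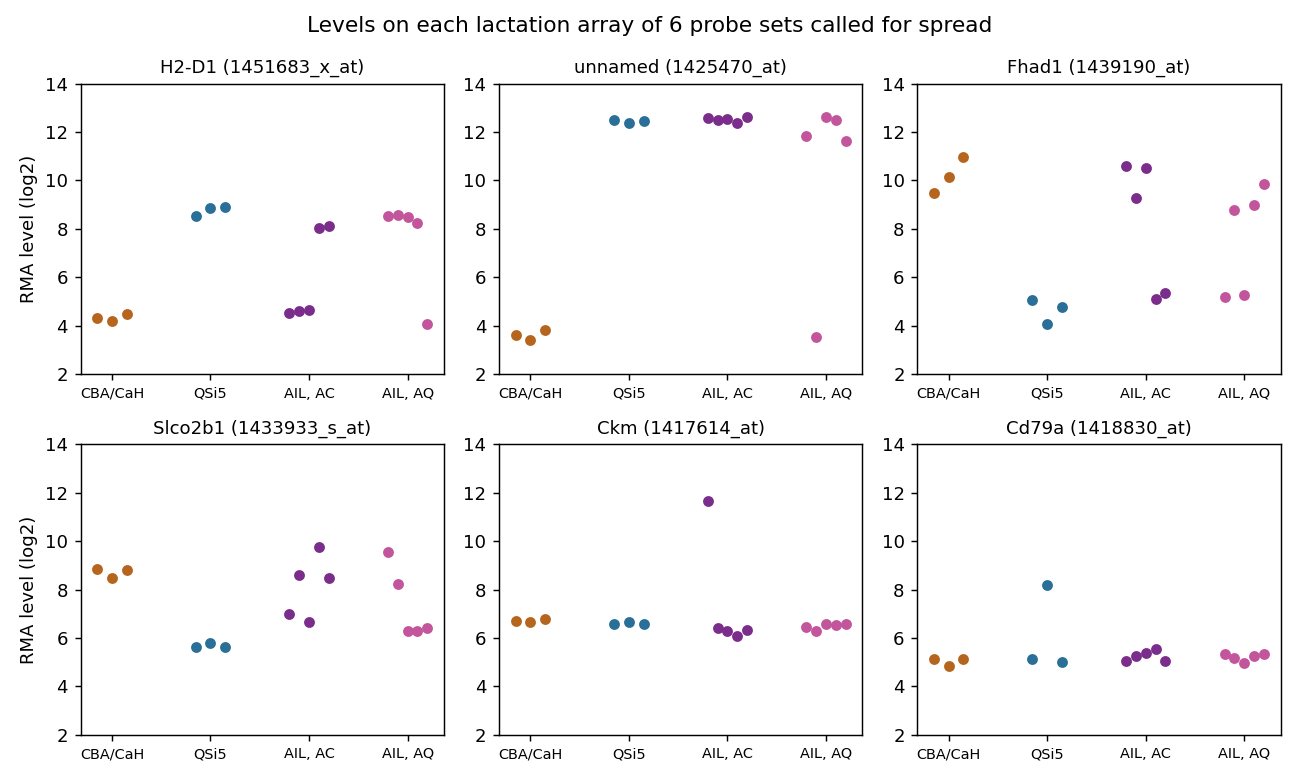
Log2 RMA level (y axis) on every lactation array of 6 probe sets called for spread, by group (x axis; 1 point an array). The first 4 panels hold AIL levels nearer CBA/CaH and AIL levels nearer QSi5, with several Slco2b1 levels inside the gap between the strains. Ckm and Cd79a each have 1 array, AC1 and QSi5 2, above all others.

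Genes of skeletal muscle were also called, each with its AIL squares mostly on 1 array. Of the 16 genes of the skeletal muscle list 9 were tested, and 4 of these were called more variable, against 0.102% of all probe sets. One of the 4, Actn3, passed the minimum mean level of 5 only through AC1: its mean was 5.08 on all 16 arrays and 4.82 without AC1. The median log2 ratio of the 9 was 4.70. Ckm, the muscle creatine kinase gene, was at 6.58 to 6.80 on the inbred arrays. AC levels were 11.68, 6.41, 6.29, 6.10 and 6.32, and the AQ arrays 6.30 to 6.60. AC1 held 79.6% of the AIL squares, and the log2 ratio was 9.55 (adjusted p = 0.00201). Pvalb, a calcium buffer of fast fibres, was at 10.24 on AC1 and at most 5.83 elsewhere (log2 ratio 7.05, adjusted p = 0.00353). Atp2a1, the calcium pump of the muscle reticulum, was at 10.91 on AC1 and at most 5.42 elsewhere (6.14, 0.00353). Pygm (muscle glycogen phosphorylase) was at 9.22 on AC1 and at most 5.89 elsewhere, and Actn3 (a fast-fibre actinin) at 9.04 and at most 5.21. The call of Pygm was also lost without CBA/CaH 3 or any QSi5 array, and that of Actn3 without CBA/CaH 2 or 3 or QSi5 1 or 3.

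AC1 held over 50% of the AIL squares in 6 of the 25 probe sets called more variable, and it held the largest AIL square in 9.05% of all tested probe sets. None of these muscle calls held without it; the list median was -0.31 without AC1 and QSi5 2. Tcap (8.75 on AC1, log2 ratio 6.41) and Myh1 (5.85 on AC1, log2 ratio -0.89) were not called, with adjusted p of 0.0982 and 0.940. Whether muscle was taken with that gland was not tested.

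In all 30 probe sets that were less variable in AIL, 1 array held over 50% of the inbred squares. It was QSi5 2 in 21, CBA/CaH 1 in 8 and CBA/CaH 3 in the remaining probe set. Over all tested probe sets these arrays held the largest inbred square in 18.7%, 19.6% and 16.9%. The share of all probe sets with over 50% on 1 array was not computed. Some uncalled genes passed 50% too, as Fasn at 65.2%, and others did not, as Xdh at 34.5%. None of the 30 calls held without each array in turn. With 3 arrays a strain, the largest square is always at least 50% of the squares of its strain. Passing 50% is thus nearly fixed wherever 1 strain holds most of the inbred squares, and cannot by itself show that 1 array departed. Some levels were graded, as those of Garem1 at 9.44, 7.45 and 6.87 in CBA/CaH.

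The 21 probe sets in which QSi5 2 held over 50% of the inbred squares were high on it. Of these, 15 had a single symbol, of 11 genes: Coro1a, Cd79a, Cd79b, Ccl5, Ltb, Trav9d-3, Ighm, Gm34006, Cd52, Cd53 and Tbc1d10c. Ltb, which codes for lymphotoxin beta, gave 4.99, 5.02 and 4.99 in CBA/CaH and 5.02, 9.04 and 4.80 in QSi5. On AC1 to AC5 the levels were 5.25, 4.96, 5.10, 5.48 and 5.20, and AQ1 to AQ5 gave 5.39, 5.07, 5.28, 5.34 and 5.00. QSi5 2 stood more than 3 log2 units above every other array (log2 ratio -6.43, adjusted p = 0.00157). Cd79a, a signalling chain of the B cell receptor, was at 8.18 on QSi5 2 and at 4.84 to 5.56 elsewhere (-5.59, 0.00698). Its partner Cd79b was at 7.91 there (-5.0, 0.0311).

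Coro1a, an actin regulator of blood cells, reached 10.14 on QSi5 2 (log2 ratio -6.03, adjusted p = 0.00201). The T cell receptor segment Trav9d-3 reached 8.74 (-8.55, 0.00157), though probe sets for such segments can match several. Ccl5, a chemokine of activated T cells, reached 9.48 (-5.20, 0.0262), and the predicted gene Gm34006 reached 6.85 (-5.44, 0.0470). The calls of Cd79b, Ccl5 and Gm34006 held without only 8, 11 and 3 of the 16 arrays in turn. Within the fixed lists, 2 of 7 tested B and plasma cell genes were called less variable, against 0.122% of all probe sets, and none of 9 T and NK cell genes. Cd3d, a chain of the T cell receptor complex, was at 7.78 on QSi5 2 and missed the threshold (-4.48, 0.0765).

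Not all B lineage genes had that pattern. Jchain, which plasma cells make to join IgA, ranged from 10.11 to 12.41 in AIL and from 8.42 to 11.16 in the inbred arrays, with QSi5 2 at 10.20, below both its strain mates (log2 ratio -0.98, adjusted p = 0.948). Tnfrsf17, a plasma cell receptor gene, was highest on AC4 at 5.83 (2.38, 0.904), and Cr2, of mature B cells, was at 7.18 on QSi5 2 (-3.52, 0.324). The summed B and plasma cell markers were at 11.37 to 11.82 in QSi5, 10.78 to 11.72 in CBA/CaH and 11.35 to 12.83 in AIL. Whether lymph node was part of that sample was not tested.

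The 8 probe sets in which CBA/CaH 1 held the largest inbred square were of Junb, Dram1, Ahr, Cnnm2, Slc5a8, Ano4, Garem1 and C730049O14Rik. Slc5a8 passed the minimum level only through that array, with a mean of 4.85 without it. Junb, an immediate early transcription factor gene, gave 8.30, 5.72 and 5.87 in CBA/CaH and 5.88, 6.94 and 6.16 in QSi5. From AC1 to AC5 they were 6.45, 6.34, 6.10, 6.17 and 6.27, and AQ1 to AQ5 gave 6.24, 6.08, 6.49, 6.31 and 6.05. The AIL standard deviation was 0.159 and the inbred one 1.09 (log2 ratio -5.57, adjusted p = 0.0120). Dram1, a lysosomal membrane protein gene linked to autophagy, was at 9.42 on CBA/CaH 1 and at 6.22 to 7.51 elsewhere (-5.27, 0.0120). Ahr, the aryl hydrocarbon receptor gene, was at 8.34 there and at 5.34 to 6.22 elsewhere (-5.02, 0.0255). Without CBA/CaH 1 none of these was called. Marchf7, a ubiquitin ligase gene, was low on CBA/CaH 3 at 6.32 against 7.63 to 8.57 on the other 15 arrays (-6.19, 0.0262), and its call held without 8 of the 16 arrays in turn.

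The involution and acute-phase list showed the same array. CBA/CaH 1 deviated from its group by a median of 1.47 log2 units over the matched members, while AIL arrays ranged from -0.38 to 0.48. No member was called; the median log2 ratio over 11 tested was 0.85, 2.21 without CBA/CaH 1 and -0.67 without AC3. Igfbp5, an IGF-binding protein gene that rises as milk removal stops, was at 11.31, 7.12 and 8.10 in CBA/CaH, 6.81 to 7.06 in QSi5 and 7.22 to 9.90 in AIL (-1.59, adjusted p = 0.904). Stat3, the transcription factor gene of involution, was at 11.19 on CBA/CaH 1 and 8.75 to 10.20 elsewhere (-4.34, 0.0949). Macrophage markers summed to 12.92 on CBA/CaH 1 and to 11.06 and 11.08 on its strain mates; their part in the result was not tested.

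Of the 11 tested members, 6 had a ratio above 1, and each of these was highest in AIL on another array, AC3. Their log2 ratios were 1.30 for Saa1, 0.85 for Saa2, 1.36 for Saa3, 1.48 for Lcn2, 1.03 for Hp and 2.38 for Orm1. Besides Igfbp5 and Stat3, the members below 1 were Cebpd (-2.21), Lbp (-2.40) and Cd14 (-3.68). Saa3, a serum amyloid gene, gave 7.06, 6.77, 10.72, 7.91 and 6.62 on AC1 to AC5 and 6.16, 8.63, 8.67, 9.20 and 6.87 on AQ1 to AQ5. The inbred arrays gave 11.18, 9.04 and 8.93 in CBA/CaH and 6.93, 6.08 and 6.42 in QSi5, so AIL spread over both strain levels (log2 ratio 1.36, adjusted p = 0.862). Orm1, another acute-phase gene, was highest on AC3 at 12.23 (2.38, 0.657), as was Lcn2, an iron-scavenging lipocalin gene, at 13.92 (1.48, 0.917).

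Of 11 tested milk protein genes none was called and 9 had a ratio above 1; the median log2 ratio was 0.41, and -0.74 with the array-wide standard deviations set equal. The median standard deviation was 0.0451 log2 units in AIL and 0.0365 in the inbred arrays. These levels lie near the top of the array's range, at up to 15.1, which can compress differences. Lalba, the lactose synthase modifier, gave 14.57, 14.65, 14.59, 14.60 and 14.58 on AC1 to AC5 and 14.64, 14.69, 14.52, 13.87 and 14.64 on AQ1 to AQ5. Its raw log2 ratio of 5.48 came from AQ4 and was not called after moderation (adjusted p = 0.938). Ltf, which codes for lactoferrin, ranged more widely, from 12.03 to 14.09 in AIL and from 12.17 to 13.60 in the inbred arrays. Its standard deviations were 0.624 and 0.541 (log2 ratio 0.41, adjusted p = 0.937). Cel, the bile salt-activated lipase of milk, had a log2 ratio of -1.30 (0.911). Wap and Csn2 had 0.33 and 0.69 (both adjusted p = 0.904).

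None of the 10 milk fat globule genes was called; their median log2 ratio was 0.37, and -1.52 with the array-wide standard deviations set equal. Xdh, needed to envelop the lipid droplet, ranged from 12.24 to 12.94 in AIL and from 11.84 to 12.57 in the inbred arrays (log2 ratio 2.35, adjusted p = 0.9998). Btn1a1, its membrane partner, had -1.99 (0.904), and Plin3, a droplet coat gene, had -2.79 with CBA/CaH 1 highest at 8.95 (0.771). None of the 27 tested genes of fatty acid and triglyceride synthesis was called, and 6 had a ratio above 1.

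Fasn, the fatty acid synthase gene, was low on CBA/CaH 1 at 11.85, against 12.67 to 12.98 on the other inbred arrays and 12.94 to 13.88 in AIL (log2 ratio -1.29, adjusted p = 0.917). Scd1, a desaturase gene, was at 12.79, 13.62 and 12.81 in CBA/CaH and 13.89 to 14.34 in AIL (-3.13, 0.791). Lpl, the lipoprotein lipase gene, was lowest on CBA/CaH 1 at 13.24 (-3.84, 0.778). Pnpla3, a lipid droplet lipase gene, went the other way. It gave 7.60, 6.72, 6.38, 8.07 and 7.80 on AC1 to AC5 and 8.02, 8.39, 8.51, 5.92 and 8.09 on AQ1 to AQ5, against 6.59 to 6.86 for CBA/CaH arrays and 7.52 to 7.83 for QSi5 arrays (5.15, 0.112). The list median was -0.66, and 1.05 without CBA/CaH 1.

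No cholesterol synthesis gene was called. Of 14 tested, 12 had a ratio above 1, where 41.9% of all probe sets did, and the median log2 ratio was 1.55. It was 0.96 with AIL centred within code and number set. Sc5d, a late desaturase of the pathway, gave 6.79, 7.84, 8.22, 8.31 and 8.13 on AC1 to AC5 and 7.18, 7.41, 7.35, 8.22 and 7.41 on AQ1 to AQ5, against 6.84 to 7.45 in the inbred arrays (3.21, adjusted p = 0.759). Mvk, mevalonate kinase, had the opposite pattern, at 7.34 to 7.72 in AIL and 6.78 to 7.67 in the inbred arrays (-3.75, 0.766).

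The prolactin and STAT5 list, the signal that maintains lactation, had a median log2 ratio of -1.33 over 9 tested genes, 3 of them above a ratio of 1 and none called. Without CBA/CaH 1 the median was 0.09. Stat5a was at 8.74, 9.83 and 9.54 in CBA/CaH, 9.40 to 9.83 in QSi5 and 9.83 to 10.60 in AIL (-2.03, adjusted p = 0.904). Elf5, a transcription factor of alveolar cells, had -1.77 (0.904), and Socs3, a feedback inhibitor, had -2.33 with CBA/CaH 1 highest at 8.09 (0.864). Socs2, another inhibitor, was highest on AQ5 at 10.03 (2.49, 0.766).

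Genes of lactose synthesis and glucose use had a median of -1.27 over 8 tested, and -0.57 without CBA/CaH 1, none called, with Slc2a8 (a glucose transporter) at 2.79 (adjusted p = 0.948) and Pgm1 (phosphoglucomutase) at -2.65 (0.875). Mitochondrial respiration had -1.08 over 17, and -0.20 without CBA/CaH 2, none called, with Cox6a1 (cytochrome oxidase) at 2.30 (0.948) and Ndufs1 (complex I) at -4.06 (0.634). Genes of protein folding in the endoplasmic reticulum had 0.90 over 14, 10 above a ratio of 1 and none called, and 0.17 without AC3. Atf4, a stress-response factor, had 2.46 (0.969) and Canx, a chaperone, -2.14 (0.904).

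Epithelial markers had the lowest median ratios of the 32 lists. The luminal list had a median log2 ratio of -2.23 over 9 tested genes, 1 above a ratio of 1, and the myoepithelial list -1.62 over 11, 1 above; no member was called. Krt18, a luminal keratin gene, was at 10.63, 9.20 and 9.11 in CBA/CaH, 9.71 to 10 in QSi5 and 9.72 to 10.54 in AIL (-2.62, adjusted p = 0.770). Kit, of luminal progenitors, had -3.60 (0.677), Krt19 had 0.08 (0.955) and Esr1, the oestrogen receptor gene, -0.54 (0.955).

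In the myoepithelial list, Krt14 had -2.07 (0.904), Myh11, a contractile myosin gene, -3.14 (0.538) and Trp63, a basal cell factor, 0.68 (0.979). Both lists were high on CBA/CaH 1, by medians of 0.59 and 0.60 log2 units from the group mean. Without that array their medians were 1.41 and -0.53, so the luminal direction turned. In these bulk samples, fewer cells of a type and less RNA per cell cannot be told apart.

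Endothelial markers differed between the AIL number sets. All 10 tested had a ratio above 1 and none was called; the median log2 ratio was 1.86, and -1.03 with AIL centred within code and number set, which took a median of 91.9% of their AIL squares. Esam, an endothelial adhesion gene, gave 8.32, 8.11, 8.15, 7.11 and 7.43 on AC1 to AC5 and 8.18, 8.14, 8.26, 7.03 and 7.16 on AQ1 to AQ5, against 6.72 to 7.32 in the inbred arrays (3.88, adjusted p = 0.629). Arrays 1 to 3 of both codes were above all inbred arrays and arrays 4 and 5 near them. Emcn, another vessel gene, had 0.41 (0.962). Fibroblast matrix genes were also higher on AIL arrays 1 to 3 in summed level. Number sets took a median of 72.2% of their AIL squares, and the list median was 0.01, or -1.36 within them. Their summed level was 13.88 to 14.07 on AC1 to AC3 against 13.68 and 13.55 on AC4 and AC5, and 13.91 to 14.17 on AQ1 to AQ3 against 13.63 and 13.87. Their part in the endothelial values was not tested.

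Fabp4, a fatty acid carrier of adipocytes and small vessels, followed the same numbers, at 11.99 to 12.47 on AIL arrays 1 to 3 and 11.33 to 11.77 on 4 and 5 (3.78, adjusted p = 0.886). Adipoq, the adiponectin gene of fat cells, did so in AC only, at 10.17 to 10.81 on AC1 to AC3 and 9.63 and 10.12 on AC4 and AC5. In AQ it did not, with AQ4 at 10.99 above AQ2 and AQ3 at 10.50 and 10.89. Adipoq ranged over 9.63 to 11.32 in AIL and 8.59 to 10.18 in the inbred arrays (-1.65, 0.904). The white adipocyte list had a median of 0.11 over 9 tested.

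**Figure D5:**
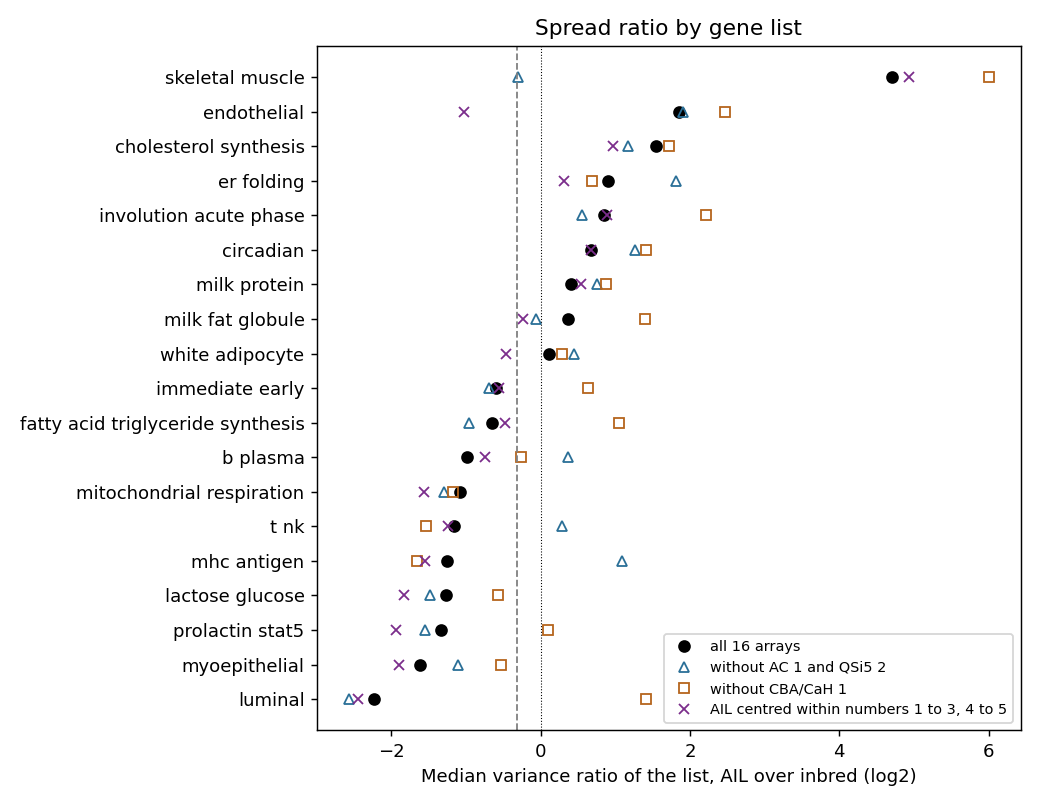
Median log2 variance ratio of AIL over inbred (x axis) for each gene list (y axis), with all arrays (filled circles), without AC1 and QSi5 2 (triangles), without CBA/CaH 1 (squares) and with AIL centred within number sets (crosses). The dashed line is the median of all probe sets, -0.32; skeletal muscle falls from 4.70 to -0.31 without AC1 and QSi5 2, and the luminal list moves from -2.23 to 1.41 without CBA/CaH 1.

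Genes that change with the hour of sampling had a median log2 ratio of 0.67 over 16 tested circadian members, 10 above a ratio of 1 and none called. Dbp, a clock output gene, gave 7.76, 5.99, 7.74, 7.93 and 6.03 on AC1 to AC5 and 8.27, 6.05, 7.65, 7.95 and 8.17 on AQ1 to AQ5. AC2, AC5 and AQ2 were low and the other 7 between 7.65 and 8.27. The inbred arrays gave 5.65, 6.41 and 7.71 in CBA/CaH and 5.47 to 5.63 in QSi5 (log2 ratio 0.72, adjusted p = 0.904). Nr1d1, a clock repressor, was lowest in AIL on AQ2 at 6.82 (2.12, 0.904), while Bhlhe40 had -1.50 with CBA/CaH 1 high at 9.06 (0.908). Sampling hours are not in the labels, and their part was not tested.

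Immediate early genes had a median of -0.61 over 12 tested, 1 called less variable (Junb), against 0.122% of all probe sets. Without CBA/CaH 1 the median was 0.64. Fos was at 8.44, 7.37 and 7.17 in CBA/CaH and 7.03 to 8.91 in AIL, with AQ4 highest (0.18, adjusted p = 0.953). Fosb had -4.02 (0.623) and Nr4a1, a nuclear receptor gene, 3.75 (0.904). In the antigen presentation list, none of 10 tested was called. The class I genes H2-D1 (1451784_x_at, the brightest) and H2-K1 had 3.83 and 3.57 (0.588 and 0.171). The class II genes H2-Aa and Cd74 had -2.30 and -2.30 with QSi5 2 highest, at 10.95 and 10.39 (0.875 and 0.862). H2-Ab1 had -1.75, H2-Ea -2.04 (both 0.904) and H2-Eb1 0.21 (0.970). B2m, the class I light chain, had 0.60 (0.962), and the peptide-supply genes Tap1 and Psmb8 had -1.33 and -1.18 (0.917 and 0.920). The list median was -1.25, and 1.08 without AC1 and QSi5 2.

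The other 13 lists had no call. Their median log2 ratios were -0.68 for fatty acid oxidation, -0.49 for transporters, -0.24 for glutathione and xenobiotic genes, -0.22 for macrophages and -0.05 for the cell cycle. They were 0.01 for fibroblast matrix, 0.10 for heat shock, 0.19 for lymph node stroma and 0.39 for the interferon response. They were 0.53 for insulin-like growth factor signalling, 0.54 for brown fat and 0.57 for ribosomal proteins, while the only tested erythroid gene had -1.08.

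Housekeeping and control features were measured in the same way. Actb, an actin gene, had a log2 ratio of -0.60 (adjusted p = 0.935), and Rplp0, a ribosomal protein gene, -0.85 (0.916). Mki67, a proliferation marker, had -1.54 (0.904). Among 60 control probe sets of the array with a mean of at least 5, which do not measure mouse tissue genes alone, the median log2 ratio was 0.72, with 39 above a ratio of 1. It was 1.80 for 27 mixed controls, 1.11 for 9 of the hybridisation controls and 0.07 for 24 poly-A spike controls. With AIL centred within code and number set these medians were 1.00, 1.19 and -1.65, and -0.50 over all 60. The 27 mixed controls hold the remaining hybridisation controls together with probe sets for mouse sequences, so their median describes no single class.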

How the data were processed

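RNA of mammary gland was hybridised to Affymetrix mouse genome arrays, whose number limits the precision. The deposited values are log2 levels made by the authors with RMA, per the submitters' processing notes; the RMA version, chip definition and whether the 26 arrays were processed together are not given in the sources used here. RMA smooths and equalises arrays, which can shrink spread. Gene names came from the platform annotation and updated symbols: 21063 tested probe sets had 1 symbol, 581 several and 2860 none. The brightest probe set stood for a gene in the 32 lists, whose 452 genes included 368 tested.

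Group variances (8 and 4 degrees of freedom) were moderated with squeezeVar of limma 3.58.1 in R 4.3.3, tested two-sided against F and adjusted by Benjamini-Hochberg. The test takes deviations as normal; on simulated normal data it recovered only some raised variances and no lowered ones, with few false calls. Strain at pregnancy was fitted with lmFit and eBayes. Genes were named by rule: the 10 highest and 10 lowest called ratios, calls kept without every array, list extremes, fixed genes, and the 10 largest strain differences. Ms4a1, Ifit1 and Gapdh, among the fixed genes, were not analysed here. The comparison and lists were chosen with earlier results of these data known. Alternatives covered filters, priors, tests, normalizations, centring, single arrays and arrays that stood apart. Same-numbered arrays did not deviate together throughout (correlations of -0.118 to -0.0753 between strains and 0.0140 to 0.369 between AIL codes), so numbers were not taken as pairs.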

Additional observations from a re-analysis of the deposited data

Results flagged for a closer look

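The AIL codes hold 5 arrays each, and the named probe sets and the array deviations were searched for a highest or lowest array far from the other arrays of its group. Of 182 groups searched, 30 (16.5%) had one. Chance gives about 1 in 20 groups, but many of these probe sets were named for extreme ratios, so the share cannot be read against chance. Several entries repeat one event, as the muscle genes on AC1 and the 5 H2 probe sets on AQ5 do. Levels are log2 RMA values, and the values in brackets are the range of the other 4 arrays of the code.

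Array AC1 stood apart in Ckm (1417614_at) at 11.68 [6.10 to 6.41], Pvalb (1417653_at) at 10.24 [4.72 to 5.38], Atp2a1 (1419312_at) at 10.91 [4.68 to 5.16], Pygm (1448602_at) at 9.22 [5.08 to 5.33], Actn3 (1418677_at) at 9.04 [4.46 to 5.12], Phgdh (1454714_x_at) at 9.42 [6.66 to 6.99], Actb (1436722_a_at) at 12.45 [12.77 to 12.89] and Tcap (1423145_a_at) at 8.75 [5.94 to 6.28]. Array AC2 stood apart in Ctse (1418989_at) at 6.22 [9.62 to 10.32], Trav9d-3 (1452405_x_at) at 5.87 [5.75 to 5.77] and Gzma (1417898_a_at) at 5.68 [6.24 to 6.40]. Array AC3 stood apart in Orm1 (1451054_at) at 12.23 [9.92 to 10.46]. Array AC4 stood apart in Pdxdc1 (1419327_at) at 5.68 [8.23 to 9.16], Tnfrsf17 (1420782_at) at 5.83 [4.61 to 4.91] and Cr2 (1425289_a_at) at 5.61 [5.05 to 5.14]. Array AQ1 stood apart in Stat3 (1426587_a_at) at 9.53 [9.96 to 10.03]. Array AQ2 stood apart in Dbp (1438211_s_at) at 6.05 [7.65 to 8.27]. Array AQ3 stood apart in Mki67 (1426817_at) at 8.10 [8.72 to 8.81] and Cox6a1 (1417417_a_at) at 12.75 [12.98 to 13.02]. Array AQ4 stood apart in Lin7c (1423322_at) at 3.89 [7.19 to 8.28], Lalba (1418363_at) at 13.87 [14.52 to 14.69], Sc5d (1451457_at) at 8.22 [7.18 to 7.41] and Pnpla3 (1420655_at) at 5.92 [8.02 to 8.51]. Array AQ5 stood apart in H2-D1 (1425545_x_at) at 7.73 [10.77 to 11.14], H2-D1 (1451683_x_at) at 4.05 [8.26 to 8.56], H2-D1 (1450170_x_at) at 10.93 [10.07 to 10.22], H2-K1 (1451931_x_at) at 7.99 [10.77 to 11.21], H2-D1 (1451784_x_at) at 9.12 [10.39 to 10.61], Socs2 (1449109_at) at 10.03 [8.46 to 8.80] and Pgm1 (1451149_at) at 7.37 [7.61 to 7.66].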

How the results depend on the processing

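The lower deviation of AIL arrays kept its sign and its side of the threshold under every alternative run; without single arrays it was -0.0289 to -0.0184, with exact permutation p of 0.000333 to 0.0150. Without single arrays the calls ranged from 10 to 39 higher and 6 to 32 lower, the median log2 ratio from -0.40 to -0.13, the median of strain-called probe sets from 0.93 to 1.39 and that of control probe sets from -1.06 to 1.82. The extremes came without QSi5 3 (10), CBA/CaH 1 (39; -0.13), QSi5 2 (6) and CBA/CaH 2 (32), and for controls without AC3 and QSi5 3. Higher and lower calls were 46 and 57 with no filter on level, 8 and 7 at a mean of at least 7, and 48 and 55 with a robust prior. A plain F test gave 1 and 23, and limma on absolute deviations 50 and 221. Relative to the median ratio there were 33 and 15, after quantile normalization 22 and 51, and from AIL arrays 1 to 3 alone 12 and 20. Without AC1 and QSi5 2 there were 5 and 1 (271 and 710 at an unadjusted p under 0.05), and with number-set centring as well 1 and 0 (95 and 1188 unadjusted, moderated limma test). With the replicate block, for numbers that do not pair the arrays, there were 0 and 0 (86 and 1273 unadjusted), on 4 and 2 degrees of freedom.

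The median log2 ratio was -0.70 after quantile normalization, -0.66 within number sets, -0.72 from arrays 1 to 3, -0.56 with number sets and without AC1 and QSi5 2, -0.70 with the replicate block, and -0.55 with the array-wide SD set equal, an alternative added after the data were seen. The strain-called median was 0.74 without a level filter and 0.79 after quantile normalization. The control median turned to -0.50 within number sets, -0.29 from arrays 1 to 3, -0.82 with both changes and -1.35 with the block.

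Among named calls, 501 recomputed values kept their call, 165 lost it and 23 changed sign. H2-D1 (1451683_x_at) was -3.86 from arrays 1 to 3. Without AC1 and QSi5 2, Atp2a1 was -0.87, Pygm -1.44, Ltb 2.15, Cd79a 0.57, Gm34006 2.82, Ccl5 0.090 and Cd79b 0.23; with number sets too, Atp2a1 was -2.83, Pygm -0.99, Ltb 1.93, Cd79a 0.90, Gm34006 2.95 and Ccl5 0.27. Without single arrays the log2 ratios ran, with the turned sign without the array named, from -0.99 (AC1) to 7.26 for Atp2a1, -1.03 (AC1) to 8.40 for Pygm and -0.40 (AC1) to 5.78 for Actn3. They ran from -6.91 to 1.98 (QSi5 2) for Ltb, -6.09 to 0.67 (QSi5 2) for Cd79a, -5.55 to 0.065 (QSi5 2) for Cd79b, -6.21 to 0.090 (QSi5 2) for Ccl5, -6.24 to 2.81 (QSi5 2) for Gm34006 and -5.43 to 1.92 (CBA/CaH 1) for Ahr. Except for H2-D1, these changes of sign followed from leaving out the array that held most of the squares. For H2-D1, the AC arrays numbered 1 to 3 all stood near CBA/CaH and the AQ arrays near QSi5. The cause of other moves was not tested. In 13 of the 25 higher and all 30 lower calls, 1 array held over 50% of the squares of its population. These counts cannot be set side by side, since 50% is an easier bar in the smaller inbred groups. The same share over all tested probe sets was not computed. Only 3 calls held without each array in turn.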
